A study of Mus musculus with 2 samples.

Results

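The proteasome genes examined here are the 50 genes, of 32285 in the matrices, whose symbol starts with Psm, a letter from a to g and a digit. They were compared between haematopoietic lineages and between Phf6 wild-type (WT) and Phf6 knockout (KO) cells. Their symbols cover 7 alpha ring, 4 structural beta ring and 3 catalytic beta ring genes of the 20S core, 6 ATPase and 11 non-ATPase genes of the 19S cap, and 5 immunoproteasome genes. Assembly chaperones (3 of the 19S cap and 4 of the 20S core), 3 other activators or regulators, 2 tissue-restricted core subunits, a copy of Psme2 (Psme2b) and Psmc3ip make up the rest. Psmc3ip, a meiotic recombination gene, matches by symbol only. The first 31 of these genes, without the immunoproteasome, are called the constitutive 26S genes.

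The proteasome is the barrel-shaped protease that degrades ubiquitin-tagged proteins. Its core carries a catalytic site on each of the beta1, beta2 and beta5 subunits, encoded by Psmb6, Psmb7 and Psmb5. Interferon and immune differentiation replace them with beta1i, beta2i and beta5i (Psmb9, Psmb10 and Psmb8), which gives the immunoproteasome, and induce the PA28 cap (Psme1 and Psme2). The exchanged sites favour peptides that fit MHC class I molecules.

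The cells were mouse bone marrow, either WT or Phf6 KO, that had received a vector with the RUNX1-S291fs mutant and GFP. GFP-positive cells were put into recipient mice, and after 8 weeks GFP+Lin- cells were sorted from recipient marrow for droplet 3′ sequencing. Both groups thus share the mutant, the vector, the sort and the transplantation, and differ by Phf6. There is 1 library per genotype, so no test across mice is possible, and every interval below is an exact 95% interval that covers counting error only.

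The WT library kept 4478 cells with 118878655 unique molecular identifiers (UMIs, counted RNA molecules), and the KO library 4709 cells with 110257800 UMIs. Phf6, the targeted gene, had 41.8 counts per 1000000 UMIs (CPM) in WT cells against 20.6 in KO cells, a KO over WT log2 ratio of -1.02 (-1.09 to -0.95). The labels do not say which part was deleted, and a 3′ tag outside the deleted part checks nothing. Each compared class had less Phf6 RNA in the KO library except basophil or mast cell-like cells, where the log2 ratio was -0.06 (-0.51 to 0.38). The libraries share 7 cell barcodes among the kept cells.

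Classes of cells were named from marker genes on clusters of both libraries, and 8 classes had at least 50 cells in each. They are stem and multipotent progenitors (HSC/MPP-like, 934 WT and 1403 KO cells), megakaryocyte-like (879 and 839), monocyte-like (713 and 889), neutrophil progenitor-like (578 and 409), erythroid-like (270 and 107), basophil or mast cell-like (161 and 115), dendritic cell-like (73 and 89) and B cell-like cells (66 and 51). No proteasome gene was among the variable genes used for clustering. The sort removed cells with lineage antigens, which bears on how many mature cells each class holds.

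Of the 5 immunoproteasome genes, 2 lie together in the MHC region of GRCm38 chromosome 17. They are Psmb9 (ENSMUSG00000096727, 34181987 to 34187764, minus strand) and Psmb8 (ENSMUSG00000024338, 34197721 to 34201454, plus strand). The peptide transporter gene Tap1 begins 211 bases from the start of Psmb9 and runs the other way, and the exons of the pair overlap. Psme1 (ENSMUSG00000022216, 55578123 to 55581529, plus strand) and Psme2 (ENSMUSG00000079197, 55587441 to 55591113, minus strand) are near each other on chromosome 14, and Psmb10 (ENSMUSG00000031897, 105935735 to 105938444, minus strand) is on chromosome 8. The constitutive catalytic genes are apart: Psmb5 (ENSMUSG00000022193, 54614119 to 54618022, minus strand) on chromosome 14, Psmb6 (ENSMUSG00000018286, 70525367 to 70527858, plus strand) on chromosome 11 and Psmb7 (ENSMUSG00000026750, 38588036 to 38644087, minus strand) on chromosome 2. All 50 genes are annotated as protein coding.

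The promoters below, from RefSeq on GRCm38.p6, run from 250 bases before to 50 after the start, 5′ to 3′ on the gene's strand. Those of Psmb9, Psmb8 and Psme1 are shown because these members varied most alike between classes, and that of Psmb5 as the constitutive counterpart of Psmb8. Capitals mark matches to the interferon-stimulated response element core (GAAA, any 2 bases, then GAAA), the GAS motif TTCNNNGAA and the CCAAT box, each sought on both strands. They lie at chr17:34187281-34187580 (Psmb9, minus strand), chr17:34197945-34198244 (Psmb8, plus strand), chr14:55578244-55578543 (Psme1, plus strand) and chr14:54617946-54618245 (Psmb5, minus strand). Numbering counts the RefSeq start as 0. That start lies inside the gene span given above, by 434 bases for Psmb9, 474 for Psmb8, 371 for Psme1 and 27 for Psmb5, so for Psmb9, Psmb8 and Psme1 the sequence upstream of the annotated gene was not searched.
Psmb9: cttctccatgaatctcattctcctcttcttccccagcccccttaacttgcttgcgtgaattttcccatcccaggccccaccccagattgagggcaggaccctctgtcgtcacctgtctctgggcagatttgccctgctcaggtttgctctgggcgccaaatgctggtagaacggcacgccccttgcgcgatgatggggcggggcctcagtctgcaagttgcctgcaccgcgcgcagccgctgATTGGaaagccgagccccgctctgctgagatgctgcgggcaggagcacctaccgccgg
Psmb8: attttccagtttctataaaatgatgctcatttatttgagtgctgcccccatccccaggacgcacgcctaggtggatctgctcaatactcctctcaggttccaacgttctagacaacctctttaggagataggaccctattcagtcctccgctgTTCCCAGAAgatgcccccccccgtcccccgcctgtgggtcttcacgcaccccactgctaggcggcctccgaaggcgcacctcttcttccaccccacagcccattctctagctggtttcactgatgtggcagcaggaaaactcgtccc
Psme1: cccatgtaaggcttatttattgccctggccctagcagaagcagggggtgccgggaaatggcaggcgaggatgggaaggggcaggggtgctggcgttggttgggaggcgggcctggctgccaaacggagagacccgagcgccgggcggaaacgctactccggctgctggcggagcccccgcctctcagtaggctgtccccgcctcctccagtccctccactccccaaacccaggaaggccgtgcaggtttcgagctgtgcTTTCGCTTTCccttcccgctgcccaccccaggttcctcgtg
Psmb5: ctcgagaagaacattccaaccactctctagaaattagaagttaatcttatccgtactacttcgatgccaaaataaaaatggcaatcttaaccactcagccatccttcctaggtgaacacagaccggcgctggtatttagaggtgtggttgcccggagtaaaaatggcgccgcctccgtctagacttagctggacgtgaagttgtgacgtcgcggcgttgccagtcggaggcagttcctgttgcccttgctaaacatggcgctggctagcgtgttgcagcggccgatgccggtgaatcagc

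Psmb8 holds a GAS match from -97 to -89, Psme1 a reversed response element core from 9 to 18, and Psmb9 a reversed CCAAT box from -8 to -4. GAS matches were in 8.30% of 32851 mouse promoters of this length, in 1 of 5 immunoproteasome genes and in 1 (Psmd2) of the 25 constitutive genes with a promoter in the table. The response element core was in 3.44% of promoters, in Psme1 and in 2 constitutive genes (Psmb3 and Psmd4). CCAAT was in 37.4% of promoters, in Psmb9 alone of the 5, and in 10 of the 25. The core of the antioxidant response element, TGANNNNGC, was in 41.3% of promoters, in 3 of the 5 (Psmb8, Psmb9 and Psme2) and in 14 of the 25. No letters of these motifs occur in the Psmb5 window other than that last one, which is not in capitals. A match is a run of letters and not a measured binding site, and a missing match speaks only of the window searched. Promoters were matched for 42 of the 50 genes.

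The first comparison set the lineages against each other in the WT library. Immunoproteasome genes were highest in dendritic cell-like cells and lowest in erythroid-like cells, while the constitutive genes were highest in erythroid-like cells. The 5 immunoproteasome genes summed to 2265 CPM in dendritic cell-like cells (2187 to 2346), 1451 in monocyte-like, 1329 in HSC/MPP-like, 1216 in neutrophil progenitor-like, 1184 in B cell-like, 1026 in basophil or mast cell-like, 836 in megakaryocyte-like and 621 in erythroid-like cells (609 to 634). Neutrophil progenitor-like and B cell-like cells did not differ beyond counting error (1201 to 1232 and 1080 to 1295). The 31 constitutive genes summed to 8630 CPM in erythroid-like cells, 5911 in monocyte-like, 5700 in neutrophil progenitor-like, 5616 in dendritic cell-like, 5369 in megakaryocyte-like, 4754 in HSC/MPP-like, 3983 in B cell-like and 3764 in basophil or mast cell-like cells. The classes come from clustering of the same cells, so these levels are a description. The megakaryocyte-like value is an average over unlike clusters: cluster 1, whose marker score of 1.10 was just past the minimum of 1, stood at 1059 CPM, and clusters 7, 19 and 13 at 649, 722 and 341 CPM. The class held 1718 cells of both libraries, and between 834 and 1928 under the other filters and clusterings.

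**Figure D1:**
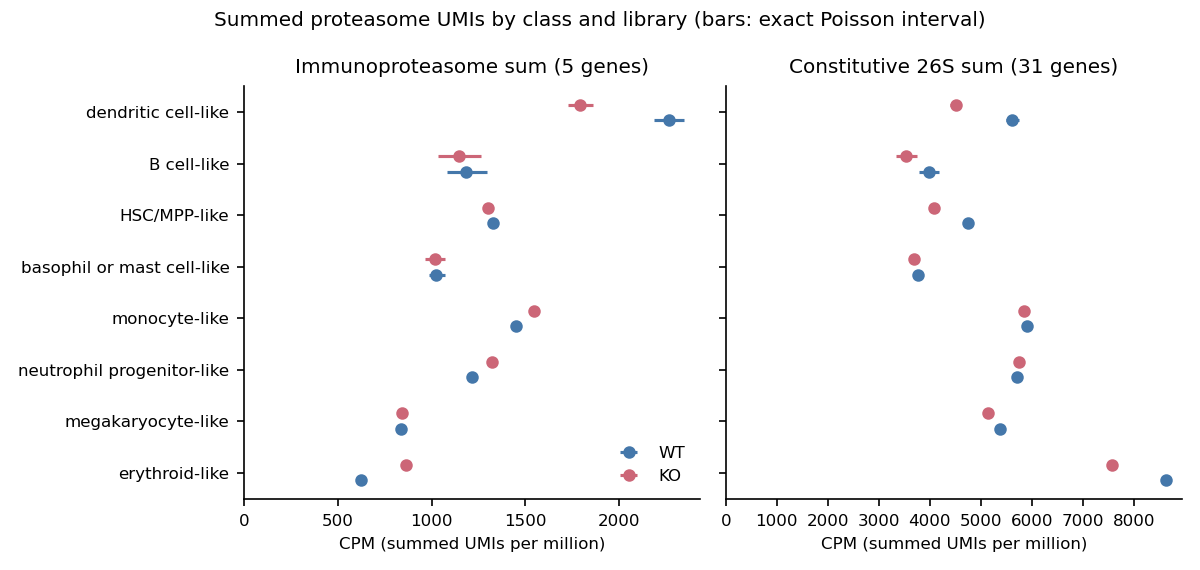
Summed CPM (x axes) of the 5 immunoproteasome genes (left) and the 31 constitutive 26S genes (right) in 8 classes, WT in blue and KO in red, with exact Poisson intervals of counting error. Dendritic cell-like cells are highest on the left (2265 and 1793 CPM) and erythroid-like cells highest on the right (8630 and 7563 CPM).

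Psmb8, which encodes beta5i, spanned the widest range of the 5 genes. In WT cells it stood at 805 CPM in dendritic cell-like, 492 in monocyte-like, 463 in HSC/MPP-like, 443 in B cell-like, 428 in neutrophil progenitor-like, 349 in basophil or mast cell-like, 239 in megakaryocyte-like and 127 in erythroid-like cells. The order of Psmb9, encoding beta1i, began and ended with the same classes, at 405 and 74.1 CPM. Psme1, the alpha chain of PA28, ran from 554 CPM in dendritic cell-like to 175 in erythroid-like cells.

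Psmb10 varied less, and Psmb10 and Psme2 each ordered the classes in another way. Psmb10, encoding beta2i, was highest in monocyte-like cells at 180 CPM and lowest in basophil or mast cell-like (110 CPM), erythroid-like (110 CPM) and megakaryocyte-like cells (112 CPM), whose counting intervals overlap. Psme2, the beta chain of PA28, stood at 349 CPM in dendritic cell-like, 232 in monocyte-like and between 112 and 171 CPM in the other 6 classes. Over 16 points (8 classes in 2 libraries), Psmb8, Psmb9 and Psme1 correlated with the summed other immunoproteasome genes at r of 0.92, 0.93 and 0.91, Psmb10 at 0.76 and Psme2 at 0.72. These points share libraries and depth, so the correlations only describe them. The immunoproteasome and constitutive sums had r of -0.26 over the same points.

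Of the 5 genes, 4 were at least 1.5-fold higher in dendritic cell-like than in other WT cells (all but Psmb10), where 17.2% of all genes were. In erythroid-like cells 3 of 5 were at least 1.5-fold lower (Psmb8, Psmb9 and Psme1, log2 differences -1.74, -1.37 and -0.85), against 28.7% of genes, and in megakaryocyte-like cells 2 of 5 (Psmb8, -0.80 and Psme2, -0.63), against 13.7%. The KO library gave 1 of 5 higher in dendritic cell-like cells (17.5% of genes) and 2 of 5 lower in erythroid-like cells (24.8%).

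The constitutive genes all lay on 1 side of their level in other WT cells in 3 of 8 classes: above it in erythroid-like cells, below it in HSC/MPP-like and basophil or mast cell-like cells. The median log2 difference of all genes was -0.02 in erythroid-like, 0.09 in HSC/MPP-like and -0.03 in basophil or mast cell-like cells. In erythroid-like WT cells all 31 were above their level in other cells and 22 of 31 were at least 1.5-fold higher, against 22.7% of all genes, with a median log2 difference of 0.80. Lid and base genes of the 19S cap led: Psmd7 (Rpn8, log2 difference 1.54), Psmd3 (Rpn3, 1.34) and the ATPase gene Psmc2 (1.33). Psmd8, encoding Rpn12, was the member least raised there (0.14). The KO library gave 16 of 31 (21.3% of genes), with the same 3 genes on top.

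At the other end, 20 of 31 were at least 1.5-fold lower in basophil or mast cell-like WT cells (20.6% of genes) and 16 of 31 in B cell-like cells (29.2%). HSC/MPP-like cells had 0 of 31 at or past 1.5-fold in either direction (14% of genes higher, 9.35% lower). Yet all 31 lay below their level in other cells, with a median of -0.30 against 0.09 for all genes. In the KO library 6 of 31 were at least 1.5-fold lower there (11.6% of genes). Monocyte-like cells had 1 constitutive gene at least 1.5-fold higher, the alpha ring gene Psma7 (784 CPM, log2 difference 0.78), and 1 lower, Psmd7 (-0.77), against 14.9% and 15.4% of genes. The heatmap of genes by class shows these levels.

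**Figure D2:**
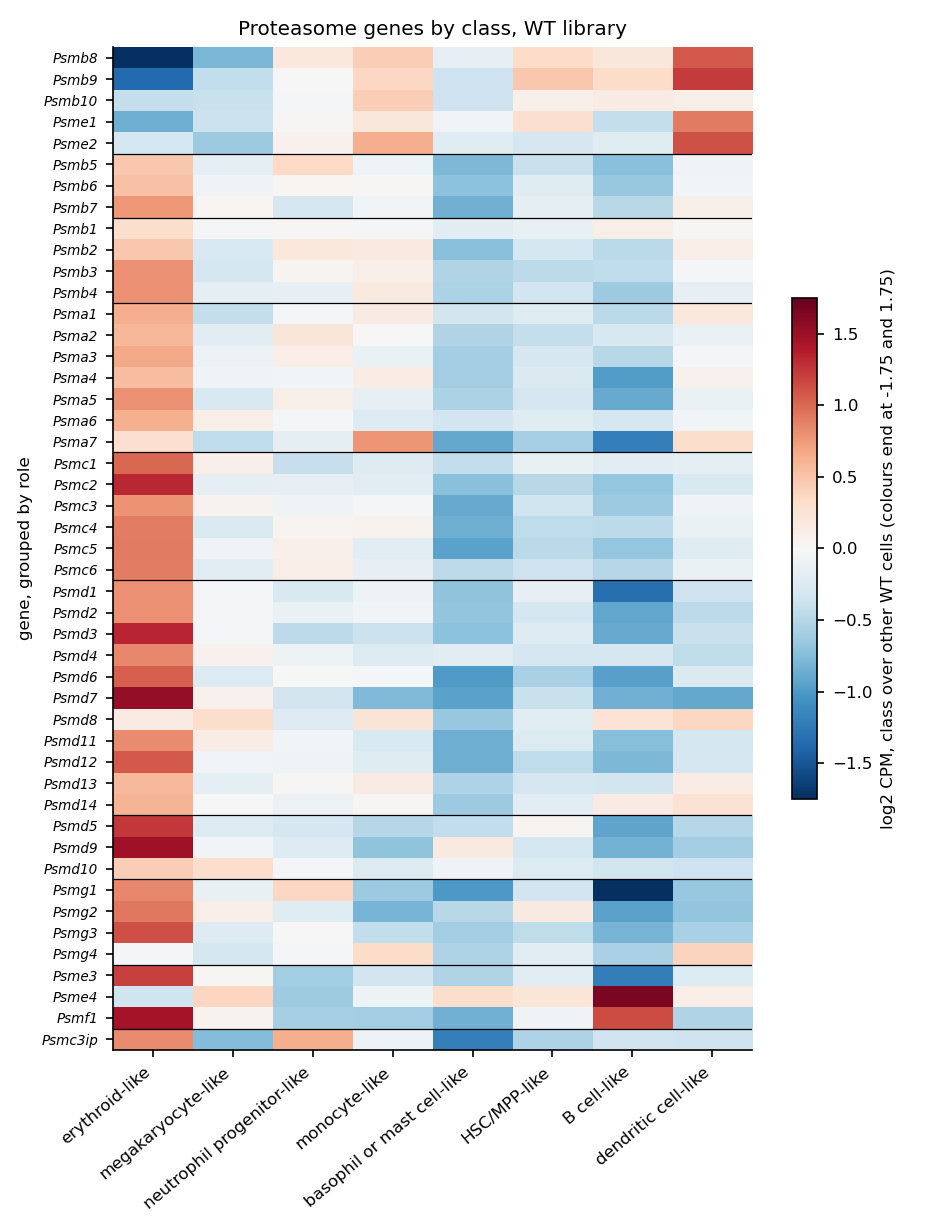
Log2 ratio of CPM in each class over all other WT cells (colour) for the 47 genes at 10 CPM or more (rows, grouped by role) in 8 classes (columns). The immunoproteasome rows at the top are blue in the erythroid-like column where the constitutive rows are red, and Psmg1 in B cell-like cells (-4.61, from 1 UMI) lies beyond the colour scale.

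Of the 7 assembly chaperone genes, 6 lay above their level in other WT cells in erythroid-like cells, where the median log2 difference of all genes was -0.02. The 19S chaperone genes Psmd9 (p27) and Psmd5 (S5b) were higher in erythroid-like than in other WT cells by log2 1.49 and 1.24, and the 20S chaperone gene Psmg3 (PAC3) by 1.13. Psmg4 (PAC4) was the exception, at -0.02. Psmf1, encoding the regulator PI31, stood at 55.6 CPM in erythroid-like and 54.5 CPM in B cell-like cells, and at 14.0 to 25.6 CPM in the other 6 classes. Psme3, the nuclear activator PA28 gamma, was highest in erythroid-like cells at 78.4 CPM.

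Psme4, encoding the nuclear activator PA200, had a pattern of its own. It was highest in B cell-like cells with 206 CPM (WT) and 270 CPM (KO), and at 45.6 to 81.7 CPM in the other WT classes. Psme2b was highest in B cell-like cells too, at 24.8 CPM, but its transcript is identical to that of Psme2 at 99.4% of 794 aligned bases, so how the authors' counting split these reads is uncertain. Psmc3ip was highest in erythroid-like (61.0 CPM) and neutrophil progenitor-like cells (54.1 CPM). Psma8, a germ cell alpha subunit gene, reached 16.9 CPM in HSC/MPP-like WT cells. Psmb11, the thymic beta5t gene, had 14 UMIs in all WT cells and 5 in all KO cells.

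To set each immuno subunit against the subunit it replaces, UMIs of Psmb8, Psmb9 and Psmb10 were divided by those UMIs plus those of Psmb5, Psmb6 and Psmb7. Transcripts of different genes are not captured equally by 3′ tags, so this share compares cells and is not a ratio of molecules. In WT cells the share was 70.1% in dendritic cell-like (68.3% to 71.8%), 68.5% in B cell-like, 63.1% in basophil or mast cell-like, 62.6% in HSC/MPP-like, 60.6% in monocyte-like, 54.3% in neutrophil progenitor-like, 46.4% in megakaryocyte-like (54.1% in cluster 1 and 36.9% to 39.1% in its other 3 clusters) and 27.6% in erythroid-like cells. Dendritic cell-like and B cell-like cells did not differ beyond counting error. Highest minus lowest class was 42.5 percentage points (40.6 to 44.3) in WT and 29.9 (27.6 to 32.1) in KO cells.

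The share of each pair was higher in dendritic cell-like than in erythroid-like WT cells, but the Psmb10 pair ordered the classes otherwise. The Psmb8 share of Psmb8 plus Psmb5 went from 29.1% to 78.3%, and the Psmb9 share of Psmb9 plus Psmb6 from 19.4% to 64.7%. The Psmb10 share of Psmb10 plus Psmb7 went from 35.7% to 52.7% (47.7% to 57.7%) and was highest in B cell-like cells (63.0%). It was also above the dendritic cell-like value in basophil or mast cell-like (60.5%), monocyte-like (59.2%), HSC/MPP-like and neutrophil progenitor-like cells (56.4% each).

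**Figure D3:**
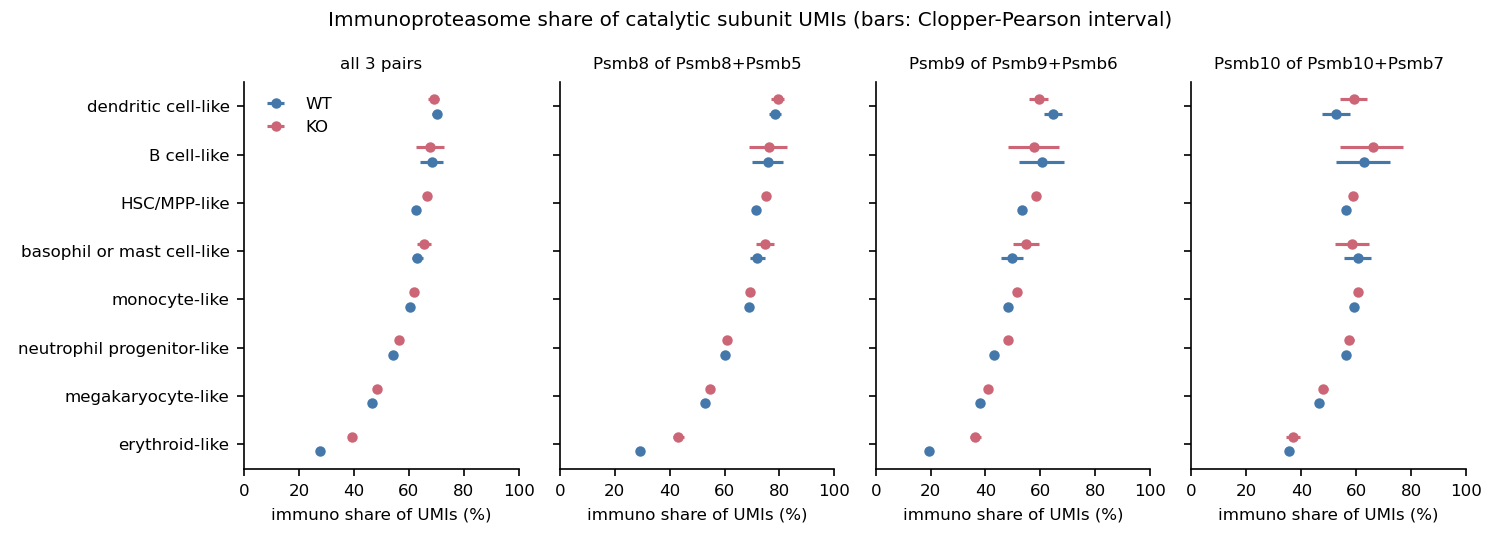
Share of UMIs (x axes, percent) from the immuno subunit gene, for all 3 pairs together and for each pair, in 8 classes; WT in blue, KO in red, bars are Clopper-Pearson intervals of counting error. Erythroid-like cells are lowest in every panel, and KO points for Psmb9 lie to the right of WT points in 6 of 8 classes.

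Within erythroid-like cells the share fell with the more mature cluster. Cluster 14, with Car1 and Klf1 among its top genes, had a share of 39.5% in 156 WT cells. Cluster 17, with the red cell membrane genes Slc4a1 and Kel, had 11.8% in 114 WT cells, and there Psmb8 stood at 13.8 CPM beside 315 CPM of Psmb5. Elane, a neutrophil progenitor gene at 9629 CPM in its own class, stood at 29.6 CPM in erythroid-like WT cells. Droplets without cells were not analysed here, so whether so low a Psmb8 level is free RNA was not tested. Median UMIs per cell were 41260.5 in cluster 14 and 75091.5 in cluster 17 (WT), and with each cell thinned to 5000 UMIs the median erythroid-like WT cell kept 3 immunoproteasome UMIs and 39 constitutive UMIs (32 and 483 unthinned; 7 cells were too shallow). The median dendritic cell-like WT cell kept 10 and 28 (38 and 112 unthinned; 11 too shallow).

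Genes whose log2(CPM + 1) over the 16 points followed the immunoproteasome sum most closely, of 3471 genes at 50 CPM or more, were Parp8 (r of 0.93), Cst3 (0.92), Ttc7, H2-DMb1 and BC035044 (0.90 each), and H2afy, Phactr2 and H13 (0.89 each). H2-DMb1 encodes a chaperone of MHC class II loading and Cst3 the protease inhibitor cystatin C. Those most like the constitutive sum were Micos10, Uqcr10 and Eif4e2 (0.98 each) and Higd1a and Uqcrc1 (0.97 each). Uqcr10 and Uqcrc1 encode subunits of mitochondrial complex III and Micos10 a protein of the mitochondrial inner membrane.

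The second comparison asked how the proteasome genes differed between the KO and WT libraries. Over all cells the differences were small and of opposite sign: the immunoproteasome sum was higher in the KO library and the constitutive sum lower. The immunoproteasome sum came to 1165 CPM for WT cells (1159 to 1171) and 1298 CPM for KO cells (1291 to 1304), a log2 ratio of 0.16 (0.15 to 0.17). The constitutive sum came to 5756 CPM (5742 to 5769) and 5273 CPM (5260 to 5287), a log2 ratio of -0.13 (-0.13 to -0.12). With the classes weighted alike the immunoproteasome ratio was -0.01, so its sign depends on the weight given to each class. The constitutive ratio was -0.12 with classes weighted alike, -0.083 with clusters weighted alike and -0.065 with clusters at the mean mix of both libraries.

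None of the 47 genes at a mean of 10 CPM or more was at least 1.5-fold higher or lower in the KO library, where 2.04% and 1.25% of 8584 genes were. All 5 immunoproteasome genes were above 0, as were 61.2% of genes, and all 31 constitutive genes below 0, as were 38.8%. The median log2 ratio was 0.10 for the immunoproteasome, -0.13 for the constitutive genes and 0.06 for all genes.

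**Figure D4:**
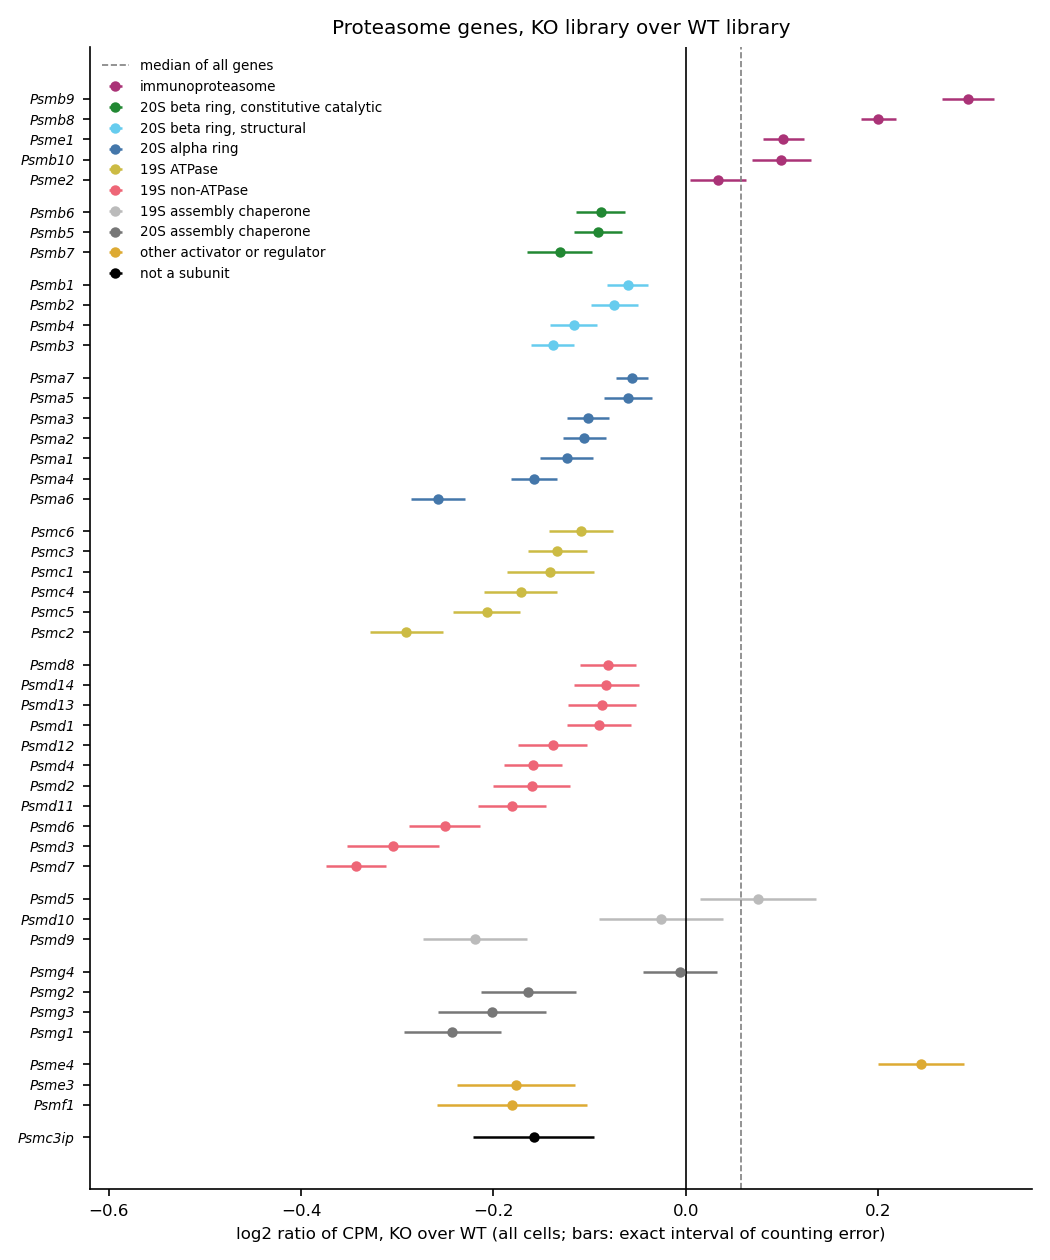
Log2 ratio of CPM, KO over WT, over all cells (x axis) for the 47 genes at 10 CPM or more, grouped by role; bars are exact intervals of counting error and the dashed line is the median of all genes, 0.06. The 5 immunoproteasome genes lie between 0.03 and 0.29, and the 31 constitutive genes between -0.34 and -0.06.

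Of the catalytic immuno subunits, Psmb9 differed most, at 176 CPM (WT) and 216 CPM (KO), a log2 ratio of 0.29 (0.27 to 0.32). Psmb8 stood at 386 and 444 CPM (0.20, 0.18 to 0.22) and Psmb10 at 142 and 152 CPM (0.10, 0.07 to 0.13). Their constitutive counterparts went the other way: Psmb5 at 233 and 219 CPM (-0.09), Psmb6 at 228 and 214 CPM (-0.09) and Psmb7 at 128 and 117 CPM (-0.13). The PA28 genes moved little, Psme1 from 297 to 319 CPM (0.10) and Psme2 from 163 to 167 CPM (0.03, 0.00 to 0.06). Psme2 was below 0 under 7 of the 9 alternatives. With classes weighted alike Psmb8 (-0.054) and Psmb10 (-0.012) were below 0 as well, and Psmb9 was at 0.075.

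Lower ratios were spread over every constitutive group, with log2 ratios of the sums of -0.11 for the alpha ring, -0.10 for the structural beta ring, -0.10 for the catalytic beta ring, -0.17 for the 19S ATPases and -0.16 for the 19S non-ATPases. The lowest single genes were Psmd7 (168 and 133 CPM in WT and KO, -0.34), Psmd3 (68.3 and 55.3, -0.30), the ATPase gene Psmc2 (111 and 90.6, -0.29), the alpha ring gene Psma6 (195 and 163, -0.26), the lid gene Psmd6 (114 and 96.1, -0.25) and the chaperone gene Psmg1, encoding PAC1 (60.2 and 50.9, -0.24). Psmd7, Psmd3 and Psmc2 were also the 3 constitutive genes most above other cells in erythroid-like cells, which gave 15224157 of the WT and 4757733 of the KO UMIs. In erythroid-like cells alone, Psmd7 had a log2 ratio of -0.18 and Psmc2 of -0.31. With clusters at the mean mix of both libraries, the all-cell ratios were -0.14 for Psmd7, -0.14 for Psmd3 and -0.13 for Psmc2. Those of Psma6, Psmd6 and Psmg1 were then -0.19, -0.14 and -0.14, so the size and order of these ratios depend on the cluster mix.

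Among genes nearest to or above 0 were the chaperone genes Psmd5 (0.08), Psmg4 (-0.01) and Psmd10 (gankyrin, -0.03), the alpha ring genes Psma7 and Psma5 (-0.06 each) and the structural gene Psmb1 (-0.06). Of the remaining activators, Psme4 was higher in the KO library, at 66 and 78.2 CPM (0.24, 0.20 to 0.29), and its ratio lay above 0 in 7 of the 8 classes, all but basophil or mast cell-like cells (-0.20). Psme3 (-0.18) and Psmf1 (-0.18) were lower.

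The largest difference of any of the 50 genes beyond a few UMIs was in Psma8, at 12.3 CPM for WT (11.7 to 12.9) and 7.56 CPM for KO cells (7.06 to 8.10), a log2 ratio of -0.70 (-0.82 to -0.58). Its mean of 9.93 CPM kept it just outside the counts above. In monocyte-like cells it stood at 9.67 and 3.40 CPM (-1.51), and it was lower in the KO library in each of the 7 classes where both libraries had UMIs.

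Within classes, the immunoproteasome and constitutive sums did not move alike. The immunoproteasome sum was above 0 beyond counting error in erythroid-like (log2 ratio 0.47, 0.42 to 0.53), neutrophil progenitor-like (0.12, 0.09 to 0.15) and monocyte-like cells (0.09, 0.07 to 0.11). It was below 0 in dendritic cell-like (-0.34, -0.41 to -0.26) and, slightly, in HSC/MPP-like cells (-0.03, -0.06 to -0.01). None of the 4 HSC/MPP-like clusters was below 0 beyond counting error (-0.016, -0.0058, 0.034 and 0.098), so the class value goes with their changed mix. The neutrophil progenitor-like clusters were not alike: cluster 2 was at 0.19 (0.15 to 0.22), and cluster 12 at -0.04 (-0.09 to 0.008), where the interval held 0. In megakaryocyte-like (0.01), basophil or mast cell-like (-0.01) and B cell-like cells (-0.05) the interval held 0. Both basophil or mast cell-like clusters differed, in opposite directions: cluster 15 had 837 CPM (WT) and 997 CPM (KO) (0.25, 0.13 to 0.38), and cluster 20, with 59 and 43 cells, 1286 CPM (1215 to 1361) and 1061 CPM (970.3 to 1158). The median of all genes lay between -0.01 and 0.08 in these 8 classes.

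The constitutive sum was below 0 beyond counting error in 6 of 8 classes: dendritic cell-like (-0.32), HSC/MPP-like (-0.22), erythroid-like (-0.19), B cell-like (-0.17), megakaryocyte-like (-0.06) and monocyte-like cells (-0.02). The HSC/MPP-like value lies outside those of its 4 clusters, which ran from -0.20 to -0.12. In neutrophil progenitor-like cells the constitutive sum was at 0.01 (0.00 to 0.03). Its clusters went opposite ways, cluster 2 at 0.06 (0.05 to 0.08) and cluster 12 at -0.09 (-0.11 to -0.07). All 31 genes were below 0 in HSC/MPP-like, dendritic cell-like and erythroid-like cells, where 40.9%, 46.6% and 39.5% of all genes were. Lowest in HSC/MPP-like cells were the ATPase gene Psmc5 (93.1 and 70.6 CPM, -0.40) and the alpha ring gene Psma4 (223 and 170 CPM, -0.39). Psmc6 (-0.01) and Psmd14, the deubiquitinase Rpn11 (-0.03), were nearest to 0 there.

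Other large classes had narrower spreads. In monocyte-like cells constitutive genes ran from Psmd3 and Psma6 (-0.19 each) to Psmc1 (0.11) and Psma5 (0.13). Neutrophil progenitor-like cells went from Psma6 (-0.13) and Psmd7 (-0.12) to Psma3 (0.11) and Psmd1 (0.14), and megakaryocyte-like cells from Psma6 (-0.20) and Psmd7 (-0.14) to Psmd13 (-0.00) and Psmc6 (0.03). Psma6 was thus among the lowest in each of these 3 classes.

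Erythroid-like cells had the largest immunoproteasome difference. Psmb9 had 74.1 CPM (WT) and 158 CPM (KO), a log2 ratio of 1.10 (0.96 to 1.23), and Psmb8 127 and 205 CPM (0.69, 0.58 to 0.80), the 2 of 5 genes at least 1.5-fold higher, against 7.49% of genes. Psme1 (0.44) and Psme2 (0.24) were higher by less, and Psmb10 was at 110 and 102 CPM (-0.11, -0.26 to 0.04). The more mature cluster 17 made up 114 of 270 WT and 33 of 107 KO cells. Within cluster 14 alone (156 WT and 74 KO cells), Psmb9 had a log2 ratio of 0.81 (0.65 to 0.96), Psmb8 of 0.46 (0.35 to 0.58) and the constitutive sum of -0.31 (-0.34 to -0.29). The sum of the 5 genes there was 930 and 1177 CPM (0.34). Hba-a1 stood at 139 and 34.0 CPM in cluster 14, and the part of maturity within it was not tested. The median erythroid-like cell thinned to 5000 UMIs held 3 immunoproteasome UMIs in WT and 5 in KO (32 and 34 unthinned).

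Dendritic cell-like cells went the other way, with lower values of both kinds. Psmb8 had 805 CPM (WT) and 608 CPM (KO) (-0.41, -0.53 to -0.28), Psmb9 at 405 and 307 CPM (-0.40) and Psme1 at 554 and 435 CPM (-0.35). Psmb10 was the exception, at 152 and 167 CPM (0.13, -0.14 to 0.40). Of the 31 constitutive genes, 2 were at least 1.5-fold lower, Psmd3 (-0.71) and Psmc1 (-0.70), against 6.94% of genes. In B cell-like cells 3 of 31 were, Psmc1 (-1.12), Psmd3 (-1.06) and Psmd6 (-1.0), against 19.9%, in 66 and 51 cells. The dendritic cell-like class holds 73 WT and 89 KO cells of a single cluster. Irf8, a transcription factor gene that differs between dendritic cell types, stood there at 1205 and 869 CPM (-0.47) and the MHC class II chain gene Cd74 at 5046 and 5322 CPM; the part of cell type mix in the difference was not tested.

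The catalytic share was higher in the KO library in most lineages. Over all cells it was 54.5% in WT and 59.6% in KO cells, a difference of 5.15 percentage points (4.79 to 5.50). Erythroid-like cells, the class with the lowest share, gave 17132 of 153653 catalytic UMIs in WT and 5643 of 150056 in KO cells. The all-cell difference thus also depends on the class mix, and no share at a common mix is given here. Erythroid-like cells differed by 11.6 points (10.1 to 13), HSC/MPP-like by 3.84 (3.06 to 4.62), neutrophil progenitor-like by 2.10 (1.2 to 3.0), megakaryocyte-like by 1.87 (0.85 to 2.89) and monocyte-like cells by 1.51 (0.78 to 2.23). The intervals held 0 in basophil or mast cell-like (2.51), B cell-like (-0.70) and dendritic cell-like cells (-1.004). Of the neutrophil progenitor-like clusters, cluster 2 differed by 2.96 points (1.85 to 4.07) and cluster 12 by 0.05 (-1.49 to 1.60). In HSC/MPP-like cells the higher share came with lower Psmb5, Psmb6 and Psmb7 (sum 502 CPM in WT, 427 in KO) at nearly level Psmb8, Psmb9 and Psmb10 (sum 842 and 847 CPM). Within its clusters those 3 immuno genes were higher by 0.17 (0.099 to 0.24) in cluster 10 and 0.079 (0.028 to 0.13) in cluster 8, and by 0.052 and 0.0069 in clusters 5 and 0, where the interval held 0. In monocyte-like cells the 3 immuno genes were higher (887 and 971 CPM) and the 3 constitutive genes slightly so (578 and 594 CPM).

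Single clusters bear on these class values, because their mix differed between the libraries. Of 19 clusters with at least 50 cells in each library, the share was higher in the KO library beyond counting error in 12 and lower in 1. The immunoproteasome sum was above 0 in 9 and below 0 in 3, and the constitutive sum above 0 in 4 and below 0 in 13. Cluster 0, with Tox and Ror1 among its top genes, made up 227 of 934 WT and 610 of 1403 KO HSC/MPP-like cells. Its immunoproteasome log2 ratio was -0.02 and that of cluster 10, with the stem cell genes Mecom and Hlf, was 0.10 (0.04 to 0.15). Psmb9 led in cluster 10, at 210 and 258 CPM (0.30).

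**Figure D5:**
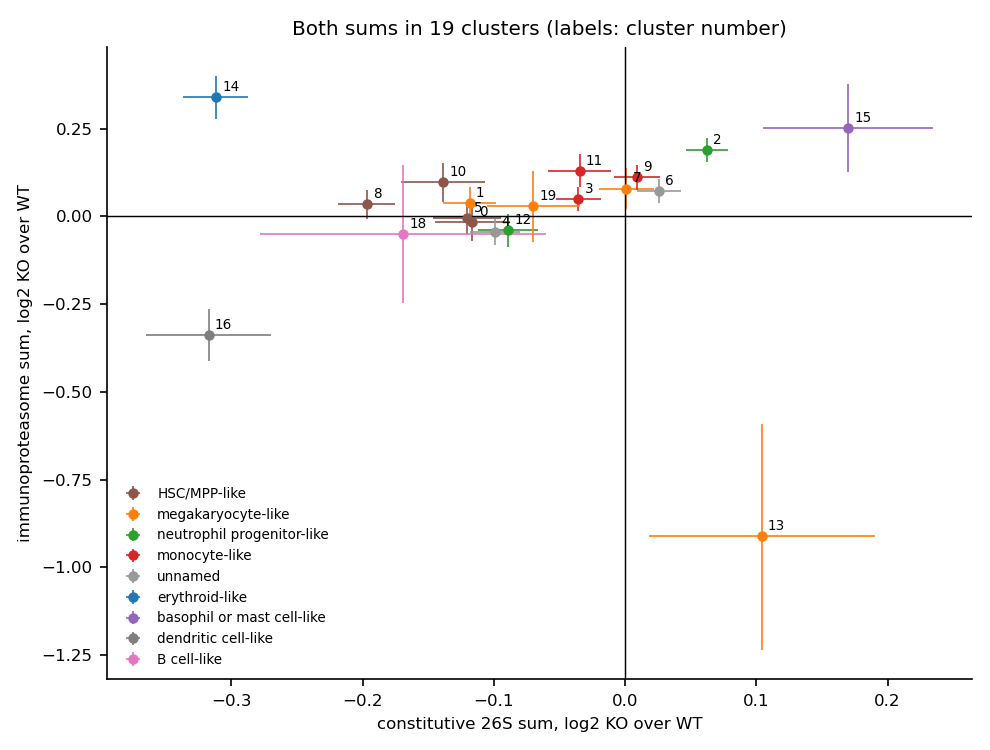
Log2 ratio of KO over WT for the constitutive sum (x axis) and the immunoproteasome sum (y axis) in 19 clusters, numbered and coloured by class, with exact intervals of counting error. Cluster 14 (erythroid-like) lies upper left at -0.31 and 0.34, cluster 16 (dendritic cell-like) lower left at -0.32 and -0.34, and cluster 13 (megakaryocyte-like) at the bottom at 0.10 and -0.91.

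Cluster 13 stands apart from the others. It holds 116 WT and 119 KO cells with the platelet genes Tubb1 and Gp6 among its top genes and low depth, with median UMIs of 3500.5 and 5136. Its immunoproteasome sum was 341 CPM (WT) and 181 CPM (KO) (-0.91, -1.24 to -0.59), from 63 and 32 UMIs of Psmb8, 29 and 11 of Psmb9, 33 and 18 of Psmb10, 53 and 40 of Psme1, and 57 and 23 of Psme2. The constitutive sum was 3081 and 3311 CPM (0.10, 0.02 to 0.19), and the catalytic share 36.9% and 19.9%. Haemoglobin RNA (Hba-a1) in the cluster was at 170 and 452 CPM and Elane at 87.1 and 45.3 CPM; the part of free RNA and depth in this difference was not tested.

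Genes that act with the proteasome were compared in the same way, from lists of other symbols. MHC class I loading genes and their regulators, 11 genes, were all above 0 over all cells, as were 61.2% of all genes. Of the 11, 3 were at least 1.5-fold higher, against 2.04% of genes, among them the class I transactivator gene Nlrc5 (23.5 and 40.2 CPM, 0.78). Irf1, a transcription factor that induces immunoproteasome genes, was another (25.2 and 42.5 CPM, 0.76). Tap1, which begins beside Psmb9, stood at 61.7 and 78.5 CPM (0.35), and its partner Tap2 at 58.5 and 59.8 CPM (0.03). This list's sum was higher in the KO library in each class, with log2 ratios from 0.24 in neutrophil progenitor-like to 0.79 in erythroid-like cells.

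In dendritic cell-like cells the class I list was thus at 0.68 where the immunoproteasome was at -0.34. Nlrc5 stood at 22.3 and 66.8 CPM there, and B2m, the class I light chain, at 1352 and 2210 CPM. Tap1 was at 111 and 142 CPM (0.36), while Tap2 went the other way, at 87.7 and 58.6 CPM (-0.58, -0.998 to -0.173). Over all WT cells B2m, H2-K1 and H2-D1 gave 132824, 103094 and 109471 of the list's 385324 UMIs, so its sum mostly follows them. Erythroid-like cells had Irf1 at 4.53 and 17.9 CPM, in the class where Psmb9 and Psmb8 differed most. HSC/MPP-like cells had Irf1 at 39.7 and 70.6 CPM, with Psmb8 at 463 and 459 CPM.

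Proteasome cofactors outside the symbol rule, 16 genes, summed to a log2 ratio of 0.02. Of these, 10 were above and 6 below 0, near the shares of all genes (61.2% and 38.8%). Adrm1, the ubiquitin receptor Rpn13, was lowest (52.4 and 41.1 CPM, -0.35), while Ube3c (0.19) and Ecpas (0.19) were highest. The NFE2L1 pathway, which raises proteasome genes when activity is short, had 8 of its 9 genes at 10 CPM or more and a sum at 0.03, with Nfe2l1 at 30.5 and 31.8 CPM and the protease gene Ddi2 highest (0.24). Ubiquitin and activating enzyme genes, 6 in all, summed to -0.08, with Ubb at -0.13 and Uba6 highest (0.25).

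Myc targets, 20 genes of growth and ribosome production, were all below 0 over all cells, as were 38.8% of all genes, with a sum at -0.34. Of the 20, 1 gene, Odc1, was at least 1.5-fold lower (104 and 67.0 CPM, -0.64), against 1.25% of genes. Hspd1 (-0.53), Srm (-0.53) and Hspe1 (-0.46) came next. By class their sum ran from -0.40 in B cell-like and -0.38 in HSC/MPP-like cells to -0.12 in neutrophil progenitor-like and -0.07 in monocyte-like cells. The constitutive proteasome sum was at -0.17 in B cell-like, -0.22 in HSC/MPP-like, 0.01 in neutrophil progenitor-like and -0.02 in monocyte-like cells. It was lowest in dendritic cell-like cells (-0.32). All these lists come from the same 2 libraries, and no list was tested against another.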

How the data were processed

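Droplet 3′ libraries, 1 per genotype, were deposited by the authors as whole-number UMI counts per gene and cell. Per the file headers the counts came from Cell Ranger 6.0.2; version 3.0.1 and the GRCm38 build stand in the submitters' processing notes. Strand use in counting is not stated by any source used here, so Psmb9 and Tap1, whose exons overlap on opposite strands, may share reads.

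Cells with at least 500 genes and at most 10% mitochondrial UMIs were kept (4702 WT and 4930 KO), and 224 WT and 221 KO cells with the highest Scrublet doublet scores were removed. Cells of both libraries were clustered together without integration (scanpy 1.11.5, 2000 variable genes, 30 components, 15 neighbours, Leiden resolution 1), and clusters were named from marker genes. UMIs were summed per class and library, divided by all UMIs and given as CPM. Intervals are exact at 95%: Poisson for CPM, conditional binomial for ratios, Clopper-Pearson for shares and Newcombe for differences of shares. They treat UMIs as independent molecules. A gene counted as higher or lower at 1.5-fold and a mean of 10 CPM. The labels do not say how many mice a library holds.

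Named were the immunoproteasome genes, their constitutive counterparts, the activators, the tissue-restricted subunits, the 6 highest and 6 lowest other members over all cells, the 2 highest and 2 lowest constitutive members in each large class (at 50 CPM), up to 4 genes per context list, and the 8 and 5 genes most like the sums. Members named for a lineage or a cluster, and context genes named within a class, were chosen after their values were seen. The members and lists were chosen with earlier results of these data known. Positions are from the GRCm38 annotation, and promoters from RefSeq. Scripts ran in Python 3.11.15 and R 4.3.3 with edgeR 4.0.16 (for TMM factors only), and were tested on simulated data. Some genes are not reported here.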

Additional observations from a re-analysis of the deposited data

Results flagged for a closer look

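The KO over WT ratio went in opposite directions in different classes. The immunoproteasome sum had a log2 ratio of -0.34 in dendritic cell-like cells and 0.47 in erythroid-like cells. The constitutive 26S sum was at -0.32 in dendritic cell-like cells and 0.014 in neutrophil progenitor-like cells. Within the neutrophil progenitor-like class, cluster 2 was at 0.062 and cluster 12 at -0.089. Each value comes from 1 library per genotype, and the difference between classes was not tested.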

How the results depend on the processing

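A group of 3 weightings of clusters (all alike, at the mean mix of both libraries, or without clusters of under 50 cells in a library) were chosen after seeing the data. The immunoproteasome log2 ratio over all cells, 0.16, was 0.090 with edgeR TMM factors, 0.072 with median of ratios factors, 0.10 as a mean per cell, 0.024 with clusters alike, 0.061 at the mean mix and 0.094 without small clusters. It reversed to -0.015 with classes weighted alike. The constitutive ratio, -0.13, was -0.14 with doublets kept, -0.19 with TMM, -0.21 with median of ratios, -0.10 per cell, -0.083 with clusters alike, -0.065 at the mean mix and -0.10 without small clusters. TMM and median of ratios shifted the median of all genes by -0.07 and -0.08. The count of members at least 1.5-fold lower, 0, was 1 (Psma8) at the mean mix and without small clusters, and 2 (Psma8 and Psmb11) with no minimum. The WT range of the catalytic share over classes, 42.5 points, was 40.04 with doublets kept. Psmb8 (-0.054) and Psmb10 (-0.012) reversed with classes alike, Psmd5 (-0.0088) with median of ratios and Psma5 (0.026) at the mean mix. Psme2 reversed with TMM (-0.032), median of ratios (-0.050), per cell (-0.021), classes alike (-0.094), clusters alike (-0.068), mean mix (-0.022) and without small clusters (-0.0074). Where the weights or scaling do not show it by construction, the cause was not tested. A stricter cell filter moved none of 23 named genes beyond its interval. No paired analysis was possible because there is 1 library per genotype, and leaving out a replicate was not possible for the same reason. Depth limits B cell-like cells most as a share of the class: 34 of 66 WT and 18 of 51 KO cells had fewer than 5000 UMIs.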

Other observations

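Some classes were too small to compare between the libraries and are given for WT cells. T or NK cell-like cells (26 cells, with Gzma and Ccl5 among their top genes) had an immunoproteasome sum of 1947 CPM (1773 to 2134) and a catalytic share of 74.3% (69.6% to 78.7%). Plasma cell-like cells (53 WT and 0 KO cells, with Jchain and Igkc) had both sums low, at 637 CPM for the immunoproteasome and 1946 CPM for the constitutive genes, yet a share of 63.3%. Immunoglobulin genes (Igkc, Igha and Ighm) were among their top genes. CPM divides by all UMIs, and the part of immunoglobulin RNA in these low sums was not tested. Eosinophil-like cells (25 cells, with Prg2 and Epx) stood at 791 CPM and a share of 55.03%.

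Some clusters carried no class name. Cluster 21, with the monocyte and macrophage genes Adgre4, Ear2 and Pparg among its top genes, had shares of 71.5% in 49 WT and 69.5% in 52 KO cells, and immunoproteasome sums of 918 CPM (810 to 1035) and 1196 CPM (1088 to 1313). Cluster 22, with median UMIs of 1722 (WT) and 1916 (KO), had immunoproteasome sums of 128 CPM (61 to 235) and 169 CPM (102 to 264), whose intervals overlap. Its constitutive sums were 3472 and 4000 CPM. In the mature erythroid-like cluster 17, below 50 KO cells and so not among the 19 compared, Psmb9 stood at 25.3 CPM in 114 WT and 87.5 CPM in 33 KO cells, and Psmb8 at 13.8 and 47.9 CPM. Elane, a neutrophil progenitor gene, stood there at 31.3 and 24.9 CPM.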
